A study of Mus musculus with 8 samples.

Results

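The TNF superfamily comprises cytokine ligands related to tumor necrosis factor and the cell-surface receptors that bind them. Its members were taken as the genes whose single annotated symbol was Tnf, Tnfsf with a number (ligands) or Tnfrsf with a number (receptors), and 30 of the 18820 genes tested met this rule, 10 ligands and 20 receptors. RNA came from the epididymal fat pad, a visceral white fat depot, of male C57BL/6 mice. The 4 IL37TG arrays came from transgenic mice overexpressing human IL37, the gene of an IL-1 family cytokine that dampens innate immune responses, and the 4 WT arrays came from wild-type mice. Both groups ate a low-fat diet (10% of energy as fat) for 2 weeks and then a high-fat diet (45%) for 16 weeks. The wild-type mice were bought from a supplier, the labels do not say that they were littermates of the transgenic mice, and neither the promoter of the transgene nor the cells that make the cytokine are named there. Genotype and origin of the mice therefore cannot be told apart. Arrays are numbered as replicates with no statement that they are different mice, so the p-values describe the spread between these arrays, which may be technical.

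Ligands of this superfamily are mostly trimers made as membrane proteins, and several are released by proteases. Their receptors signal through adaptor proteins, either toward nuclear factor kappa B and stress kinases or, where the receptor carries a death domain, toward cell death, and decoy receptors bind a ligand without passing on a signal. In obese fat, TNF from macrophages is known as an inflammatory signal that impairs the insulin response of fat cells.

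The values were log2 expression levels per probe set. The medians of the 8 arrays over all probe sets lay between 5.97 and 6.04, a likeness that the normalisation makes, and precision is limited by how few arrays there are. The tissue label was checked with markers: the fat cell gene Adipoq had a mean of 12.48 in IL37TG fat and 12.17 in WT fat, and 3 of 4 measured markers of epididymis epithelium were dim, with means under 4.49 (25th percentile over genes). WT replicate 3 stood apart from the other WT arrays. The mean of 9 macrophage markers was 9.33 in that array, inside the range of 9.04 to 9.46 in the 4 IL37TG arrays, whereas the other WT arrays had 9.90 to 10.27. Differences of Tnf, Tnfrsf1b, Tnfrsf21, Tnfrsf11a, Tnfrsf23 and Tnfrsf13c are given with and without it. Those of marker and pathway genes are given with all 8 arrays only. In bulk tissue, fewer cells of a type and less RNA per cell cannot be told apart.

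Across the superfamily, 1 of 30 genes passed the test, the receptor Tnfrsf21, which was lower in IL37TG fat (limma, threshold of 0.05 on the Benjamini-Hochberg adjusted p over all genes). None of the 10 ligands and none of the receptors passed in the higher direction. Among all genes, 1.27% passed as lower and 2.07% as higher. Of the 20 receptors, 3 had IL37TG arrays that all lay below all WT arrays (Tnfrsf11a, Tnfrsf21 and Tnfrsf23), against 5.73% of all genes with groups apart in this direction. No member had all IL37TG arrays above all WT arrays, a pattern of 8.24% of all genes. At an unadjusted p of 0.05, 1 ligand and 5 receptors were lower and 1 receptor was higher, against 9.42% of all genes lower and 11.2% higher. The median difference, IL37TG minus WT, was -0.02 log2 units over the ligands and -0.11 over the receptors, and 0.02 over all genes tested.

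**Figure D1:**
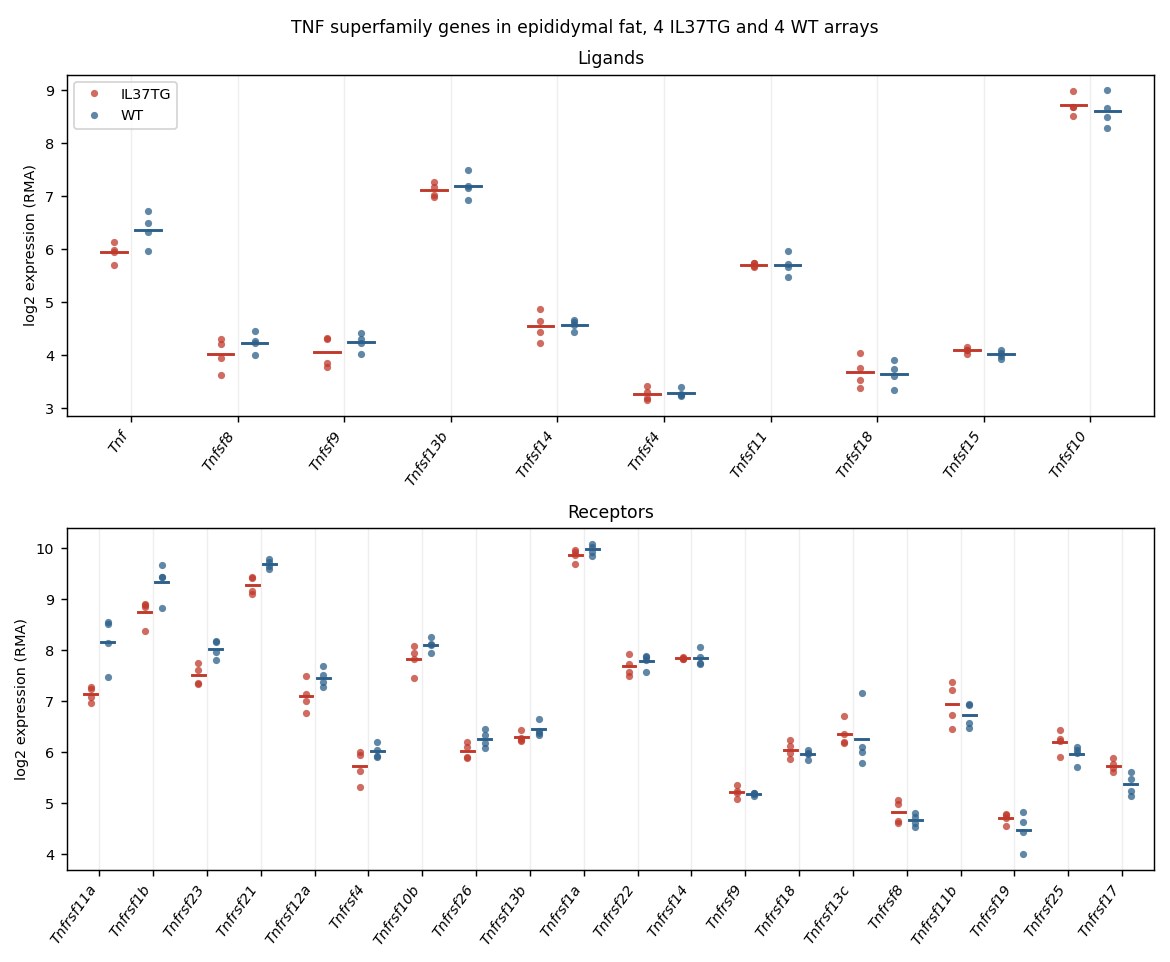
Log2 expression of the 10 ligands (top) and 20 receptors (bottom), each point 1 array and each bar the mean of 4 arrays, with IL37TG left of WT for each gene. The groups are apart for Tnfrsf11a, Tnfrsf23 and Tnfrsf21 and overlap for the other 27 genes; levels of different genes come from different probe sets and are not comparable with each other.

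TNF itself, the founding ligand, was measured at 6.14, 5.99, 5.94 and 5.70 log2 units in IL37TG replicates 1 to 4, against 6.32, 6.72, 5.97 and 6.49 in WT replicates 1 to 4. WT replicate 3 lay among the IL37TG arrays and the other 3 WT arrays lay above them all, so that the groups overlapped. The difference was -0.43 log2 units (SE 0.16, 95% interval -0.80 to -0.06, limma adjusted p = 0.183) and did not pass. Without WT replicate 3, the lowest WT value, it was -0.56 and passed (limma adjusted p = 0.0473), a widening that the choice of that array fixed. The array names carry a letter and a number, read here as plate row and column. Within columns 5, 7 and 9 the Tnf difference was 0.02, -0.46 and -0.79, and in row G, the only row with both groups, it was -0.09. Column 5 held 1 array of each group, column 7 held 1 IL37TG and 2 WT arrays, column 9 held 2 IL37TG arrays and 1 WT array, and row G held 1 IL37TG and 2 WT arrays. WT replicate 3 was the WT array of column 5 and 1 of those in row G, so the values nearest 0 rest on it. Without it column 5 has no comparison, and the Tnf difference in row G was -0.35.

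Both receptors of TNF were measured. Tnfrsf1a, the broadly expressed receptor with a death domain, had 9.92, 9.87, 9.96 and 9.69 in the IL37TG arrays, against 10.08, 10.03, 9.85 and 9.93 in the WT arrays. Its groups overlapped, and the difference of -0.11 (SE 0.08, 95% interval -0.29 to 0.07, limma adjusted p = 0.454) did not pass. The interval holds decreases of up to 0.29 log2 units, so a small change was not shown to be absent.

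Tnfrsf1b, the receptor found mainly on leukocytes and endothelium, had 8.88, 8.86, 8.90 and 8.38 in the IL37TG arrays, against 9.44, 9.67, 8.83 and 9.44 in the WT arrays. WT replicate 3 again lay among the IL37TG values, and the other WT arrays lay above all of them. The difference was -0.59 (SE 0.19, limma adjusted p = 0.132). It was -0.76 without WT replicate 3, where it passed (limma adjusted p = 0.0252), and -0.47 without IL37TG replicate 4. These arrays held the lowest value of their group, so their choice fixed the direction of each shift. Within columns 5, 7 and 9 the difference was 0.02, -0.54 and -1.04, and in row G -0.26, or -0.57 without WT replicate 3. Whether Tnfrsf1a and Tnfrsf1b differed from each other in their response was not tested.

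Tnfrsf21, known as death receptor DR6, fell in IL37TG fat. It had 9.41, 9.16, 9.43 and 9.11 in the IL37TG arrays, against 9.66, 9.79, 9.60 and 9.74 in the WT arrays. All 4 IL37TG arrays lay below all 4 WT arrays, and WT replicate 3, the lowest WT array here too, was above the highest IL37TG array. The means were 9.28 ± 0.17 in IL37TG fat and 9.70 ± 0.09 in WT fat (SD, n = 4 each), a 1.34-fold lower level (log2 -0.42, SE 0.09, limma adjusted p = 0.0497). This call was just under the threshold and rested on every array but WT replicate 3, without which the difference was -0.45 (limma adjusted p = 0.0418). Removal of any of the other 7 arrays ended the call, with differences from -0.36 to -0.47. The call was also lost with plate column as a block (log2 -0.41, limma adjusted p = 0.126) and with the replicate number as a block (limma adjusted p = 0.143). Centring each array on its median ended it too (log2 -0.41, limma adjusted p = 0.0664). With plate row as a block the difference was -0.26 and the call was lost. Row F held only WT arrays and row H only IL37TG arrays. The row block estimate is therefore that of row G alone, 1 IL37TG against 2 WT arrays, and cannot decide the call. Within columns 5, 7 and 9 the difference was -0.44, -0.26 and -0.53, and in row G -0.26, or -0.33 without WT replicate 3. The sign of these values was fixed once the groups were apart.

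Tnfrsf11a encodes RANK, the receptor that drives the formation of osteoclasts from cells of the macrophage lineage. It had the lowest difference of the 30 genes, with 7.25, 7.28, 7.09 and 6.96 in the IL37TG arrays, against 8.51, 8.56, 7.47 and 8.14 in the WT arrays. The groups were apart, but WT replicate 3 lay much nearer to the IL37TG arrays than to the other WT arrays. The means were 7.15 ± 0.15 and 8.17 ± 0.50 in IL37TG and WT fat (SD, n = 4 each), a difference of -1.02 (SE 0.23, 95% interval -1.55 to -0.50), and the limma adjusted p of 0.0529 was just above the threshold. Without WT replicate 3, the lowest WT value, the difference was -1.26 and passed (limma adjusted p = 0.00795), a widening that the choice of that array fixed. The lowest size on removal of 1 array was -0.89, without WT replicate 2. Within columns 5, 7 and 9 the difference was -0.19, -1.23 and -1.45, and in row G -0.56, or -0.90 without WT replicate 3.

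The ligand of RANK, Tnfsf11 (RANKL), had IL37TG values from 5.66 to 5.74 and WT values from 5.47 to 5.97. Its difference was -0.01 (SE 0.10, 95% interval -0.23 to 0.22, limma adjusted p = 0.983). Tnfrsf11b encodes osteoprotegerin, the soluble decoy for RANKL, and differed by 0.21 (SE 0.22, limma adjusted p = 0.618), with IL37TG values from 6.45 to 7.38 around WT values from 6.47 to 6.95. Of these 3 genes of the RANK axis, the receptor alone had groups apart.

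Tnfrsf23 encodes a decoy receptor for the death ligand TRAIL in the mouse. It had 7.75, 7.61, 7.36 and 7.33 in the IL37TG arrays, against 8.19, 8.16, 7.81 and 7.96 in the WT arrays. The groups were apart by a narrow gap, between IL37TG replicate 1 and WT replicate 3. The difference was -0.52 (SE 0.12, limma adjusted p = 0.0649). Without WT replicate 3, the lowest WT value, it was -0.59 and passed (limma adjusted p = 0.0343), a widening that the choice of that array fixed. Within columns 5, 7 and 9 it was -0.20, -0.72 and -0.62, and in row G -0.13, or -0.21 without WT replicate 3.

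Tnfrsf23 lies beside Tnfrsf22, the gene of a second mouse decoy receptor for TRAIL, and Tnfrsf22 lies beside Tnfrsf26, a related receptor gene, with no other coding gene between them on chromosome 7 of the RefSeq gene table of assembly GRCm38.p6. Tnfrsf22 differed by -0.10 (SE 0.11, limma adjusted p = 0.658), with values from 7.49 to 7.93 in IL37TG and from 7.57 to 7.89 in WT fat. Tnfrsf26 differed by -0.24 (SE 0.10, limma adjusted p = 0.246), with overlapping groups. The 3 genes are related in sequence, and array probes can read more than 1 of them, so their separate values are uncertain. The difference between neighbours was not tested. TRAIL itself, Tnfsf10, had values from 8.53 to 8.99 in IL37TG and from 8.29 to 9.01 in WT fat (log2 0.11, SE 0.16, limma adjusted p = 0.746). Its signalling receptor Tnfrsf10b, which has a death domain, differed by -0.27 (SE 0.14, limma adjusted p = 0.300).

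**Figure D2:**
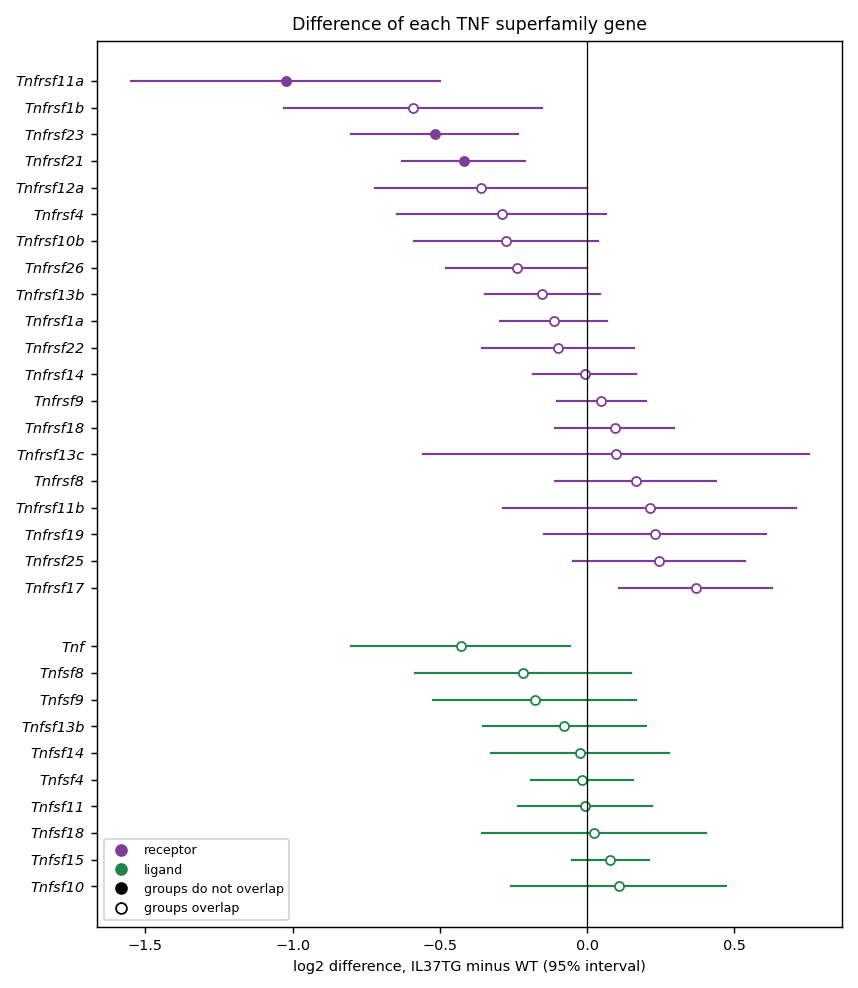
Log2 difference, IL37TG minus WT, of each receptor (top block) and ligand (bottom block) with its 95% interval from limma, without adjustment for the number of genes. Filled points are the 3 genes with groups that do not overlap, Tnfrsf11a at -1.02, Tnfrsf23 at -0.52 and Tnfrsf21 at -0.42, and the ligands lie between -0.43 and 0.11.

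The sequences just upstream of the 3 receptors with groups apart are shown because these genes alone among the members had groups apart. RefSeq start sites of GRCm38.p6 gave upstream sequence for 24 of the 30 members, and the 250 bases before the start of the 3 genes read as follows, 5′ to 3′ on the strand of the gene, with capitals marking matches to the Sp1 box GGGCGG on either strand.
Tnfrsf11a, chr1:105780473-105780722, plus strand: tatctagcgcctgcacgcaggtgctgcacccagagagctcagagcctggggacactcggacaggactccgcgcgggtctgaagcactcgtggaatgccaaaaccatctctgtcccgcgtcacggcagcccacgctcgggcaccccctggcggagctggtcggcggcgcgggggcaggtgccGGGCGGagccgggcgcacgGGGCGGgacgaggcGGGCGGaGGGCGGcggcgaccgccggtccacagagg
Tnfrsf21, chr17:43016305-43016554, plus strand: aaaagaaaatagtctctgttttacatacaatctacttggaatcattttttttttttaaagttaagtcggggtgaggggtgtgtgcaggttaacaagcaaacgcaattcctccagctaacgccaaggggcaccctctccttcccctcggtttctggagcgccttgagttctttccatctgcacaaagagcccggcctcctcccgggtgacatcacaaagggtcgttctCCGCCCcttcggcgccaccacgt
Tnfrsf23, chr7:143685876-143686125, minus strand: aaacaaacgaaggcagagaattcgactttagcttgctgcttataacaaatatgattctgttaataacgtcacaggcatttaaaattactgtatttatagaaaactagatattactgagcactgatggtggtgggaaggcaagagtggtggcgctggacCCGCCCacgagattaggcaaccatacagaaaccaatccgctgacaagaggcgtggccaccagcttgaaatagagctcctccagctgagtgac
Tnfrsf11a held 4 such boxes, starting 69, 50, 36 and 29 bases upstream of its start, in a stretch of 73.6% G and C. Tnfrsf21 held 1, starting 23 bases upstream (50.4% G and C), and Tnfrsf23 held 1, starting 92 bases upstream (44.8%). The box was found for 11 of the 24 members and in 32.7% of all 32851 upstream sequences. The letters of an NF-kappaB site, GGGANTTTC, searched on both strands, were in none of the 24 and in 0.941% of all upstream sequences. An AP-1 site, TGANTCA, was found for 4 members (Tnfrsf8, Tnfrsf9, Tnfsf13b and Tnfsf14) and in 6.75% of all, and a PU.1 site, GAGGAAGT, for 1 member (Tnfsf18) and in 2.44% of all. None of the 3 receptors held any of these other motifs in this window. A match is a description of the letters and not a shown binding site. A string as rare as the NF-kappaB letters is seldom found in 24 sequences, so its absence there says little. The lack of a match to 1 string in 250 bases does not show that a gene has no such site.

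Receptors of B cells and plasma cells did not pass. Tnfrsf13c encodes the receptor for BAFF, the survival factor of B cells. It had 6.18, 6.20, 6.71 and 6.36 in the IL37TG arrays, against 5.80, 6.00, 7.17 and 6.10 in the WT arrays, with WT replicate 3 the highest of all 8 and IL37TG replicate 3 next. The difference of 0.10 (SE 0.29, limma adjusted p = 0.882) was 0.40 without WT replicate 3 and -0.06 at its lowest on removal of 1 array. The mean of 6 measured B cell markers was highest in the same arrays, at 6.63 in IL37TG replicate 3 and 6.70 in WT replicate 3, where the other arrays had 5.78 to 6.09 in IL37TG and 5.46 to 5.71 in WT fat. Cd79a, a chain of the B cell receptor complex, was 7.09 in IL37TG replicate 3 and 7.43 in WT replicate 3, above all other arrays. The part of B cell content in the level of Tnfrsf13c was not tested.

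Tnfrsf17 encodes BCMA, the receptor of plasma cells for BAFF and APRIL, and was the 1 member higher at an unadjusted p of 0.05. It had 5.68, 5.77, 5.61 and 5.89 in the IL37TG arrays, against 5.62, 5.15, 5.25 and 5.47 in the WT arrays. IL37TG replicate 3 lay just below WT replicate 1, and the other 3 IL37TG arrays lay above all WT arrays. The difference was 0.37 (SE 0.11, limma adjusted p = 0.117). The mean of 6 plasma cell markers ran from 7.29 to 7.66 in IL37TG and from 7.34 to 7.94 in WT fat. Tnfrsf13b, the gene of TACI, which binds the same ligands, differed by -0.15 (SE 0.08, limma adjusted p = 0.354).

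The ligand BAFF, Tnfsf13b, had values from 6.98 to 7.27 in IL37TG and from 6.94 to 7.49 in WT fat (log2 -0.08, SE 0.12, limma adjusted p = 0.760). It was the only member with more than 1 probe set, and the other one, with a lower mean, differed by 0.07. Tnfsf12 (TWEAK) and Tnfsf13 (APRIL) shared 1 probe set annotated with 3 symbols and were not analysed here. Tnfrsf12a encodes Fn14, the receptor for TWEAK. It had 7.49, 7.15, 7.01 and 6.78 in the IL37TG arrays, against 7.52, 7.37, 7.27 and 7.69 in the WT arrays. IL37TG replicate 1 lay inside the WT range and the other 3 below it, and the difference of -0.36 (SE 0.16, limma adjusted p = 0.242) did not pass.

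The costimulatory pairs of T cells did not pass in any case. Of 6 receptors in this class, Tnfrsf4 (OX40) differed by -0.29 (SE 0.15) and Tnfrsf25 (the receptor DR3) by 0.24 (SE 0.13). Tnfrsf8 (CD30), Tnfrsf9, Tnfrsf14 (HVEM, the receptor for LIGHT) and Tnfrsf18 (GITR) lay between -0.01 and 0.16. Limma adjusted p-values of the 6 ran from 0.323 to 0.966. Their ligands Tnfsf4, Tnfsf8, Tnfsf9, Tnfsf14 (LIGHT), Tnfsf15 and Tnfsf18 lay between -0.22 and 0.08, with limma adjusted p-values from 0.474 to 0.952. Of these 6 ligands, 5 had a mean below the 25th percentile of gene means, all but Tnfsf14, and their levels were not shown to be above background, so that a difference there may be understated. No other member lay below that percentile. The receptor pairs Tnfrsf4 and Tnfrsf18, and Tnfrsf1b and Tnfrsf8, are direct neighbours on chromosome 4 of GRCm38.p6, with differences of -0.29 and 0.09, and of -0.59 and 0.16.

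Among T cell markers, Cd3e differed by -0.21 (limma adjusted p = 0.329), and the mean of 6 measured markers ran from 5.93 to 6.15 in IL37TG and from 5.97 to 6.47 in WT fat. Tnfrsf19, the orphan receptor TROY, completed the receptors, at 0.23 (SE 0.16, limma adjusted p = 0.470).

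Over 17 ligand and receptor pairs known to bind, both estimates were below 0 in 6, both above 0 in 3 and opposite in 8. Pairs share members, so this count is a description.

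**Figure D3:**
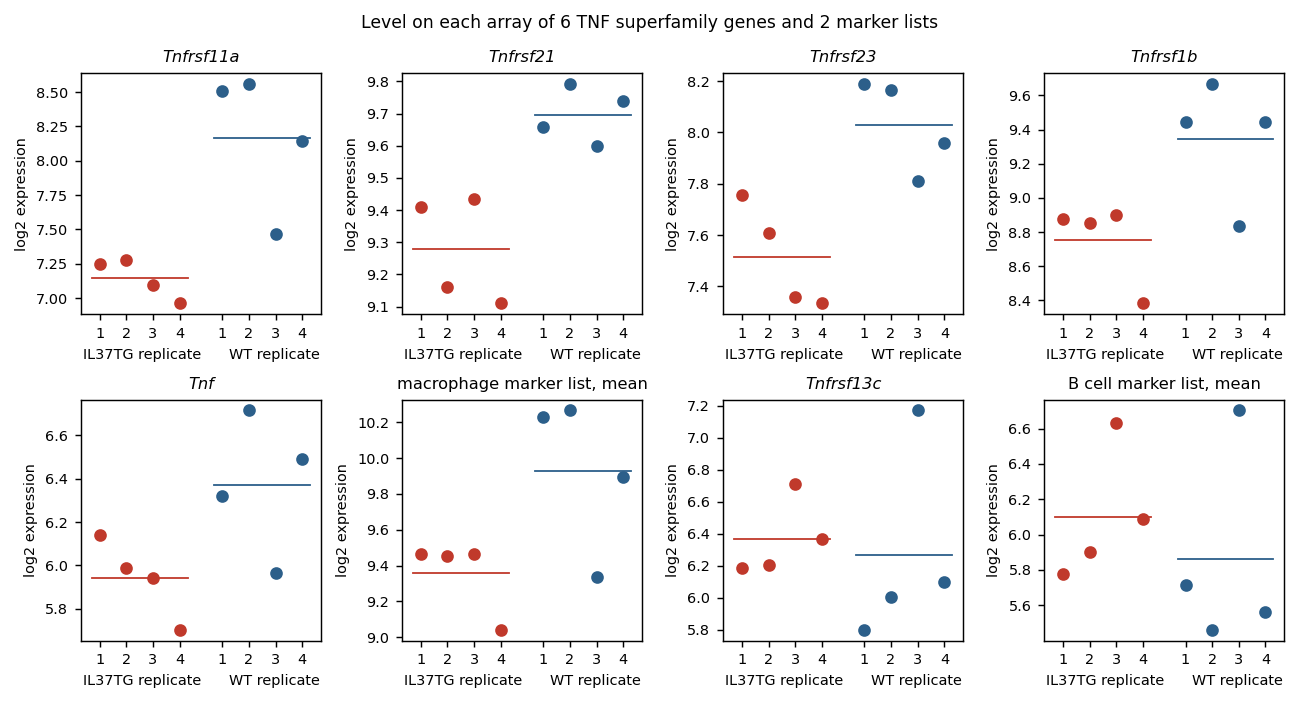
Log2 level on each array of Tnfrsf11a, Tnfrsf21, Tnfrsf23, Tnfrsf1b, Tnf and Tnfrsf13c and of the means of 9 macrophage and 6 B cell markers, with IL37TG replicates left, WT replicates right, and lines at group means; vertical axes differ between panels. WT replicate 3 lies near the IL37TG arrays for Tnfrsf11a (7.47), Tnfrsf1b (8.83), Tnf (5.97) and the macrophage list (9.33), and is the highest array for Tnfrsf13c (7.17).

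The macrophage markers had a similar order of arrays to Tnf, Tnfrsf1b and Tnfrsf11a. Their mean was 9.46, 9.45, 9.46 and 9.04 in the IL37TG arrays, against 10.23, 10.27, 9.33 and 9.90 in the WT arrays, with IL37TG replicate 4 lowest and WT replicate 3 below 3 of the 4 IL37TG arrays. Of the 9 measured markers, Fcgr1 passed as lower (log2 -1.09, SE 0.23, limma adjusted p = 0.0469), where 1.27% of all genes did. Cd68 (log2 -1.11, limma adjusted p = 0.075) and Adgre1 (log2 -0.79, limma adjusted p = 0.163) did not pass. Lyz2 (log2 -0.12) and Mertk (log2 0.04) had overlapping groups and did not pass either. The median of the 9 was -0.59. All 9 were brighter than the 25th percentile of gene means. The mean of 7 lipid-associated macrophage genes ran from 8.99 to 9.61 in IL37TG and from 9.73 to 10.79 in WT fat, with WT replicate 3 the lowest WT array and the groups apart. Of these 7, Trem2, a lipid-sensing receptor of macrophages (log2 -2.02, SE 0.42, limma adjusted p = 0.0454), and Ctsk, a lysosomal protease (log2 -1.25, SE 0.27, limma adjusted p = 0.0496), passed as lower, against 1.27% of all genes. Lpl (log2 -0.06) and Cd36 (log2 -0.04) had overlapping groups and did not pass, and the median of the 7 was -1.23. The part of macrophage content in the differences of the receptors was not tested. Tnfrsf21 and Tnfrsf23 were likewise lowest in IL37TG replicate 4 and WT replicate 3 within their groups. The order of arrays within groups was the same for Tnfrsf21 as for Tnfrsf1b. Tnfrsf21 departed from the mean of the 9 macrophage markers in size only. In WT replicate 3 it was 9.60, against 9.66 to 9.79 in the other WT arrays, where that mean was at the IL37TG level. This contrast rests on 1 array. Single markers varied, and 2 of the 9 had groups apart as lower. In WT replicate 3, Fcgr1 was 7.22 and Cd68 was 10.62, above their highest IL37TG values of 7.05 and 10.57. The list means of lipid-associated macrophage, neutrophil and fat cell markers separated all arrays by group, as Tnfrsf21 did, although single markers of each list overlapped. The mean of 5 neutrophil markers ran from 4.65 to 4.86 in IL37TG and from 5.11 to 5.21 in WT fat. Csf3r (log2 -0.46) and S100a8 (log2 -1.51) were lower by limma (adjusted p = 0.0201 and 0.028). S100a9 (log2 -0.08) and Cxcr2 (log2 0.07) overlapped and did not pass (limma adjusted p = 0.646 and 0.682). Of the 5, 3 were apart as lower (5.73% of all genes), the third being Mmp8 (log2 -0.20, mean 3.46). Below the 25th percentile of gene means lay 2 of the 5. Of 8 fat cell markers, 5 had all IL37TG arrays above all WT arrays, against 8.24% of all genes. The insulin-responsive glucose transporter Slc2a4 (log2 0.74, SE 0.11, limma adjusted p = 0.0188) and Adipoq (log2 0.30, SE 0.06, limma adjusted p = 0.0309) passed as higher. These were 2 of the 8, where 2.07% of all genes passed as higher. Adipoq ran from 12.46 to 12.51 in IL37TG and from 12.12 to 12.28 in WT fat. Plin1 (log2 0.11), Fabp4 (log2 0.06) and Lep (log2 -0.06) had overlapping groups and did not pass. The part of all 3 lists in the fall of Tnfrsf21 was not tested.

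IL37TG replicate 4 had the lowest IL37TG value for 13 of 20 receptors and 5 of 10 ligands, and WT replicate 3 had the lowest WT value for 10 of 20 and 5 of 10.

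**Figure D4:**
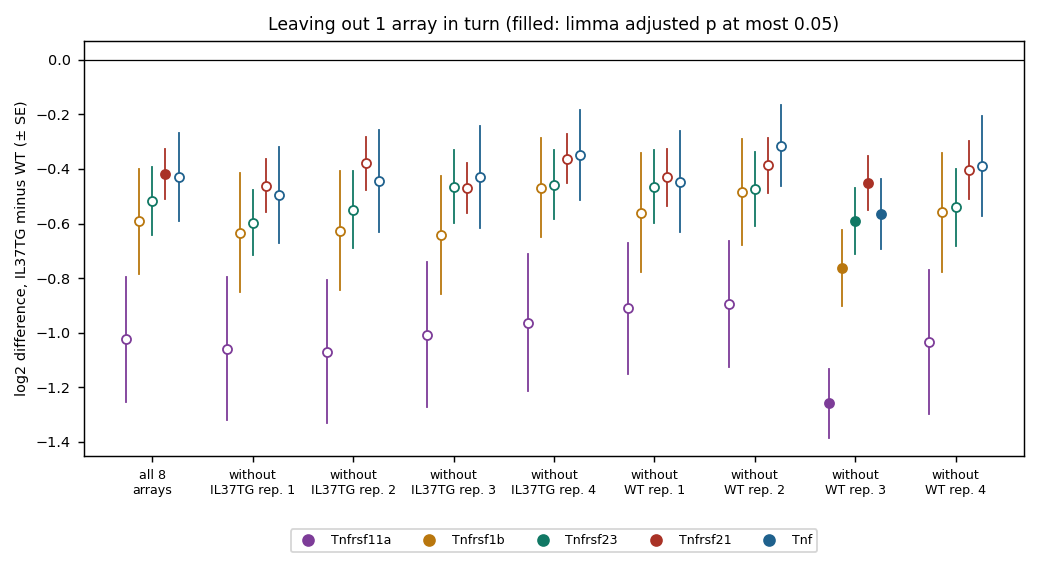
Log2 difference, IL37TG minus WT, with its SE for 5 members with all arrays and with each array left out in turn; filled points have a limma adjusted p at most 0.05. With all 8 arrays Tnfrsf21 alone passes, without WT replicate 3 all 5 pass, and with any other array left out none does. WT replicate 3 held the lowest WT value of each of the 5, so its removal had to widen each difference.

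Genes of the same families under other symbols did not pass either. Of 6 ligands (Lta, Ltb, Fasl, Cd40lg, Cd70 and Eda) and 8 receptors (Ltbr, Fas, Cd40, Cd27, Ngfr, Edar, Eda2r and Relt), none was called in either direction. The lowest p-values belonged to Eda, the ectodysplasin gene (log2 0.32, SE 0.08, limma adjusted p = 0.074, groups apart), Cd40lg (log2 0.11, limma adjusted p = 0.526), Cd40, the receptor for help from T cells (log2 -0.28, SE 0.11, limma adjusted p = 0.194), and Ltbr, the lymphotoxin receptor (log2 -0.09, limma adjusted p = 0.407). Medians were -0.02 and -0.01. At an unadjusted p of 0.05, 1 of these 6 ligands was higher and 1 of the 8 receptors was lower, against 11.2% of all genes higher and 9.42% lower.

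Downstream of the receptors, 0 of 18 measured adaptor and death-signalling genes passed, with a median of -0.17. Traf4, an adaptor of the TRAF family, differed by -0.54 (SE 0.12, limma adjusted p = 0.0559) and Tnip1, a binding partner of the inhibitor A20, by -0.30 (SE 0.10, limma adjusted p = 0.144). Both had groups apart, as 3 of the 18 did, all as lower, against 5.73% of all genes. Of 8 measured kinases and partners of the IKK and stress kinase branches, 0 passed (median -0.07), with Tab1 at -0.20 (limma adjusted p = 0.115) and Tab2 at -0.15 (limma adjusted p = 0.216). Groups were apart as lower for 2 of the 8. At an unadjusted p of 0.05, 8 of the 18 and 3 of the 8 were lower and none was higher, where 9.42% of all genes were lower.

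Of 7 genes that process or release the ligands, 0 passed (median -0.13). At an unadjusted p of 0.05, 3 of the 7 were lower and none was higher, against 9.42% of all genes lower. Adam17, the protease that sheds TNF from the cell surface, differed by -0.50 (SE 0.14, limma adjusted p = 0.089), and Frmd8, a partner of the iRhom proteins that control Adam17, by -0.23 (SE 0.08, limma adjusted p = 0.181). Of 14 genes named after TNF that lie outside the superfamily, 1 passed as lower and none as higher, with a median of -0.02. It was Tnfaip2, a gene known to be induced by TNF (log2 -0.68, SE 0.15, limma adjusted p = 0.049, groups apart). At an unadjusted p of 0.05, 3 of the 14 were lower and 2 were higher. Groups were apart as lower for 2 and as higher for 2, against 5.73% and 8.24% of all genes.

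**Figure D5:**
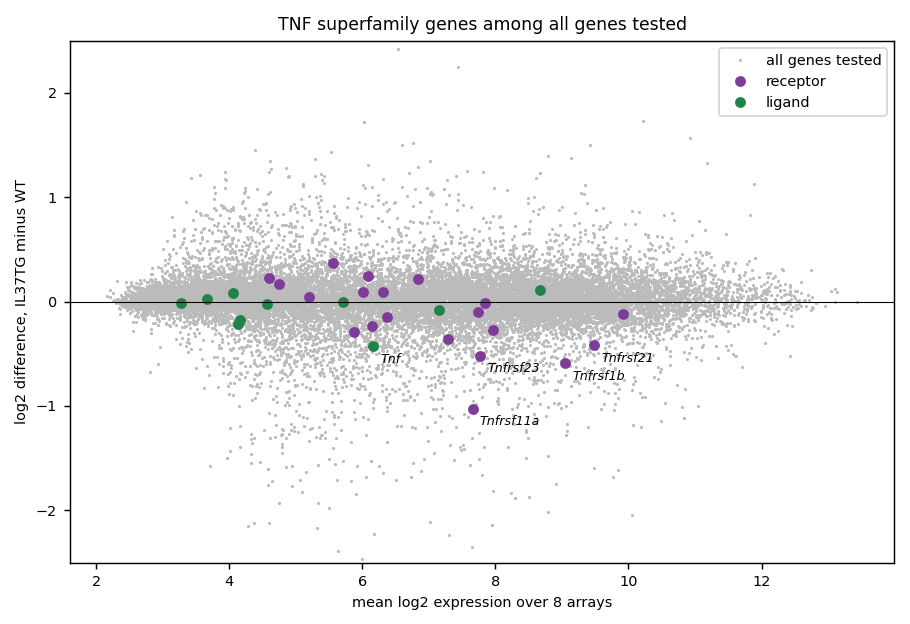
Log2 difference, IL37TG minus WT, against mean log2 expression for all 18820 genes (grey), with receptors in purple and ligands in green; the vertical axis stops at 2.5 either way, which leaves out 7 genes. Most members lie within the band of all genes, and Tnfrsf11a at -1.02, Tnfrsf1b at -0.59, Tnfrsf23 at -0.52, Tnf at -0.43 and Tnfrsf21 at -0.42 lie on its lower side.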

How the data were processed

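Biotin-labelled cDNA of total RNA was measured on single-colour arrays, per the labels' protocols. The authors deposited log2 levels of probe sets made with RMA, per the submitters' processing notes. RMA corrects background, makes array distributions alike, which hides a shift shared by most genes, and combines probes. Its version and settings are not given in the sources used here. Of 35556 probe sets, 21218 had 1 symbol, 1881 several and 12457 none. The brightest probe set by mean over 8 arrays stood for each of 18820 genes. The contrast of IL37TG with WT was fitted to all genes without a filter (limma 3.58.1, R 4.3.3, moderated two-sided test), after a check on simulated data. Differences are IL37TG minus WT.

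Members and lists were chosen with earlier results of these data known. All members are named. Each pathway list contributes its genes past the threshold, or else the 2 with the lowest p, with ligands and receptors under other symbols taken apart. The marker lists contribute Adgre1, Cd68, Cd79a, Cd3e and Adipoq, and otherwise counts and ranges. Array values of Tnfrsf12a, Tnfrsf13c and Tnfrsf17, the other markers past the threshold (Fcgr1, Trem2, Ctsk, Csf3r, S100a8 and Slc2a4), the motifs and row G without WT replicate 3 were chosen after values were seen. So were array values of Fcgr1 and Cd68 and the neutrophil markers Mmp8, S100a9 and Cxcr2. The markers Plin1, Fabp4, Lep, Lpl, Cd36, Lyz2 and Mertk were also named after values were seen. Plots used matplotlib 3.10.9 (Python 3.11.15).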

Additional observations from a re-analysis of the deposited data

Results flagged for a closer look

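Of 60 groups of 4 arrays examined, 2 for each of the 30 genes, 1 had an array far from the other 3 (1.67%), where chance gives about 1 in 20. It was Tnfrsf1b in the transgenic group, at 8.38 in IL37TG replicate 4 against 8.85 to 8.90 in the other 3 IL37TG arrays, a gap of 0.912 of the whole range. Without that array the Tnfrsf1b difference was -0.47 (limma adjusted p = 0.232).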

How the results depend on the processing

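The direction of the 5 members with the lowest differences (Tnfrsf11a, Tnfrsf1b, Tnfrsf23, Tnf and Tnfrsf21) was the same under every alternative run. Calls changed when single arrays were left out and when a block was fitted. The row block rests on row G alone, with 1 IL37TG and 2 WT arrays, 1 of them WT replicate 3. There, row, genotype and that array cannot be told apart. For the 3 with groups apart, leaving out 1 array or fitting a block could not change the sign. The gene filters and the trended prior leave a difference as it is. Within column 5 alone, Tnf and Tnfrsf1b each differed by 0.02. Over 517 values of members under alternatives, 13 gained a call, 11 lost one and 38 changed sign, none of them of a member past the threshold. With the row block the sign changed for Tnfrsf12a (0.0111), Tnfrsf1a (0.0239), Tnfrsf22 (0.25), Tnfrsf14 (0.0349), Tnfrsf13c (-0.45), Tnfrsf8 (-0.15), Tnfrsf19 (-0.0798), Tnfsf9 (0.17), Tnfsf13b (0.12), Tnfsf14 (0.0479), Tnfsf4 (0.047), Tnfsf11 (0.11) and Tnfsf10 (-0.31). With the column block it changed for Tnfsf14 (0.0447) and Tnfsf11 (0.0205), with array weights for Tnfsf4 (0.0076), after centring for Tnfrsf14 (0.0029) and Tnfsf11 (0.006), and with a second quantile normalisation for Tnfrsf14 (0.0041) and Tnfsf18 (-0.003). Leaving out 1 array, ranges that crossed 0 were -0.0476 to 0.0594 for Tnfrsf14, -0.0592 to 0.40 for Tnfrsf13c, -0.16 to 0.0216 for Tnfsf13b, -0.13 to 0.0807 for Tnfsf14, -0.0684 to 0.0216 for Tnfsf4, -0.0843 to 0.0811 for Tnfsf11, -0.0968 to 0.13 for Tnfsf18 and -0.0013 to 0.24 for Tnfsf10. Leaving out 1 array gave 0 to 4 receptors and 0 to 1 ligands lower, and 50 to 520 genes higher and 32 to 668 lower overall. Receptors passing as lower numbered 0 after centring and with the replicate, plate row or plate column block, 3 with the filters at the 25th percentile and at the median gene and with the trended prior, 4 with array weights, 5 at an unadjusted p of 0.05 and 3 at a Benjamini-Hochberg threshold of 0.1. At an unadjusted p of 0.05, 1 ligand was lower and 1 receptor higher. Over all genes, 741 were higher and 554 lower at or above the median gene, 724 and 539 with array weights, 10 and 60 with the row block, 44 and 28 with the column block, 2106 and 1772 at an unadjusted p of 0.05, and 857 and 680 at the threshold of 0.1. The receptor median was -0.32 with the filter at the median gene, which removes 10 receptors. With the replicate block, 40 genes were higher and 53 lower, and the Tnfrsf21 difference of -0.42 did not pass (limma adjusted p = 0.143). Same-numbered arrays correlated from 0.057 to 0.102 in their deviations from group means, and 2 of 8 correlated best with their own number, so the numbers were not taken as pairs. Within row G, leaving out WT replicate 3, an alternative chosen after seeing the data, moved the Tnf difference to -0.35, from -0.0858 with it. The cause of these changes was not tested, apart from the fewer genes or arrays that some alternatives hold. The number of arrays and signal near background limit the dim ligands.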
